A study of Mus musculus with 4 samples.

Results

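Expression of 42 mitosis and spindle genes was examined in hematopoietic stem cells (HSC) and common lymphoid progenitors (CLP) of wild-type (WT) mice and of mice lacking GRK6, a kinase that phosphorylates activated G protein-coupled receptors. The genes were chosen by name, as regulators and machinery of cell division, and each was looked up by its symbol among the 12417 genes that had a row of their own in at least 1 library. All 42 genes were found, and 41 of them had a row in all 4 libraries. The exception was Sgol1, which had no row in WT HSC. At least 1 FPKM (fragments scaled to transcript length and to the mapped fragments of the library, so a level per length) was reached in every library by 36 genes.

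RNA-seq had been done on 4 libraries, with 1 library for each genotype in each population, all from bone marrow of C57BL/6 mice, which the methods give as 8 to 12 weeks old unless otherwise specified. HSC were sorted by the gate Lin-c-kit+sca-1+, which also takes in multipotent progenitors, and CLP by the gate Lin-c-kit+sca-1+Il-7Ra+. GRK6-/- mice carried a deletion of exons 3 to 9 of Grk6 in the whole body. Each library pooled the cDNA of 13 to 15 single cells picked from 3 to 4 mice, after 20 and then 10 cycles of PCR on each cell separately. There were no replicates, so a ratio between 2 libraries compares those libraries, and the variation between mice or cells could not be estimated.

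The libraries held between 10056 and 11060 rows and were scaled to an estimated 2740000 to 4270000 fragments. These estimates may be too low, and the paper reports a larger number of reads for each lineage. The fragments estimated for single genes below scale with them. Grk6 itself was at 42.7 FPKM in WT HSC, 89.4 FPKM in GRK6-/- HSC, 26.9 FPKM in WT CLP and 57.6 FPKM in GRK6-/- CLP. This value covers the whole gene, including exons outside the deletion, so it does not check the genotype labels, and it was higher in both libraries labelled GRK6-/-. Every genotype direction given here rests on those labels. Il7r, the receptor used to sort CLP, had no row in WT HSC, 1.08 FPKM in GRK6-/- HSC, 120 FPKM in WT CLP and 75.1 FPKM in GRK6-/- CLP. Ly6a, which encodes Sca-1, was named only in a row shared with other genes and was left out.

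Cells enter mitosis when CDK1, bound to cyclin B, phosphorylates its substrates, with Polo-like and Aurora kinases acting beside it. Kinetochores built on the centromere attach chromosomes to the spindle, and unattached kinetochores keep the spindle assembly checkpoint active, which holds back the anaphase-promoting complex (APC/C) and its activator CDC20. Once the checkpoint is satisfied, securin and cyclin B are degraded, separase cuts cohesin and cytokinesis follows. Most mitotic genes are transcribed in G2 and M phase. In resting and G1 cells they are repressed by the DREAM complex, which binds the cell cycle genes homology region (CHR) near their start sites, and in G2 and M phase B-MYB and FOXM1 activate them, often with NF-Y bound to CCAAT boxes upstream. Stem cells of adult bone marrow are known to be mostly quiescent, whereas multipotent and lymphoid progenitors divide more often.

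The promoters of these genes share letters that the choice of genes did not use. Promoters of RefSeq (assembly GRCm38.p6, 250 bases before to 50 bases after the start, 300 bases) were matched by gene identifier for 36 of the 42 genes, of which 3 had 2 promoters. No entry was matched for Ccna2, Foxm1, Aurkb, Incenp, Tpx2 and Kif20a. The CHR was searched as TTTGAA and the CCAAT box as CCAAT, each on both strands, so that a reverse match reads TTCAAA or ATTGG. Of the 36 genes, 26 (72.2%) held a CHR, compared with 20.2% of all 27025 genes with a promoter. At least 1 CCAAT box was held by 27 of them (75%), against 41.1% of all genes, and at least 2 by 18 (50%), against 13.3%. A CHR together with at least 2 CCAAT boxes was found in 15 genes (41.7%), whereas 2.42% of all genes held that combination. Of the 9730 genes with a promoter and a row in these data, 14.8% held a CHR and 43.0% at least 1 CCAAT box. At least 2 CCAAT boxes were held by 16.8% of these, and a CHR with at least 2 by 2.57%. Matches describe letters in this window and do not show that a factor binds there.

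The promoters of 9 genes are shown from 120 bases before to 30 bases after the start, with the CHR and the CCAAT boxes in capitals. Those of Ccnb2, Cdk1, Cdc20, Cenpa, Espl1 and Top2a belong to genes that were at least 2-fold lower in GRK6-/- than in WT CLP. Those of Racgap1 and Cdca8 belong to genes with almost even levels, and that of Pttg1, also lower in GRK6-/- CLP, holds neither element. In Cdca8 the CHR and the last CCAAT box overlap.
Ccnb2, chr9:70421525-70421674, minus strand: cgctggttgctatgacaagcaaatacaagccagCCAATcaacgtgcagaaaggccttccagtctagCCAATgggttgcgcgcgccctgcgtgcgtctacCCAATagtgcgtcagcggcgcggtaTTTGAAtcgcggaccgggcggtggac
Cdk1, chr10:69352883-69353032, minus strand: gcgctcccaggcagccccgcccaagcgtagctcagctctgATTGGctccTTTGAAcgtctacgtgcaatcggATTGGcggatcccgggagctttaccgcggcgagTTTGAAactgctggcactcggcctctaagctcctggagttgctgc
Cdc20, chr4:118437314-118437463, minus strand: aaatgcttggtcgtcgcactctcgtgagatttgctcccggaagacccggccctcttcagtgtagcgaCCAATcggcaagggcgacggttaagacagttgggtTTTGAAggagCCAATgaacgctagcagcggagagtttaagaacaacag
Cenpa, chr5:30666766-30666915, plus strand: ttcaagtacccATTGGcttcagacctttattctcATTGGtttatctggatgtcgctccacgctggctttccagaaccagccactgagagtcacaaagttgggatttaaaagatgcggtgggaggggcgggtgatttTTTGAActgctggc
Espl1, chr15:102296173-102296322, plus strand: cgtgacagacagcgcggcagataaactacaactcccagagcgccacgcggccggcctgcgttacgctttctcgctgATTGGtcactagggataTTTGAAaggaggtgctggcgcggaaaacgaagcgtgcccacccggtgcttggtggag
Top2a, chr11:99024160-99024309, minus strand: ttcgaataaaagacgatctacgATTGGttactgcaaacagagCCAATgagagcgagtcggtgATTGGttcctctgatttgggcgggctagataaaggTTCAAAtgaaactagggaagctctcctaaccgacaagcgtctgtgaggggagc
Racgap1, chr15:99651627-99651776, minus strand: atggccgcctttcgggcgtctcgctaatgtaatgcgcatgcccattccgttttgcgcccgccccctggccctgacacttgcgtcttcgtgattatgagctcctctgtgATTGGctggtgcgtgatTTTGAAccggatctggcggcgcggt
Cdca8, chr4:124936888-124937037, minus strand: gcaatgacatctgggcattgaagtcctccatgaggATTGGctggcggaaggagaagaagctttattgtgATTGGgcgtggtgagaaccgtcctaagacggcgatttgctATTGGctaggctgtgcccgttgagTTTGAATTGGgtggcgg
Pttg1, chr11:43425952-43426101, minus strand: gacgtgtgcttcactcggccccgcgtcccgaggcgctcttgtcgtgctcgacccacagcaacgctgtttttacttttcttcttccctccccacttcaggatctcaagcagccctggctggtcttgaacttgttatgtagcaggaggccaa

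**Figure D1:**
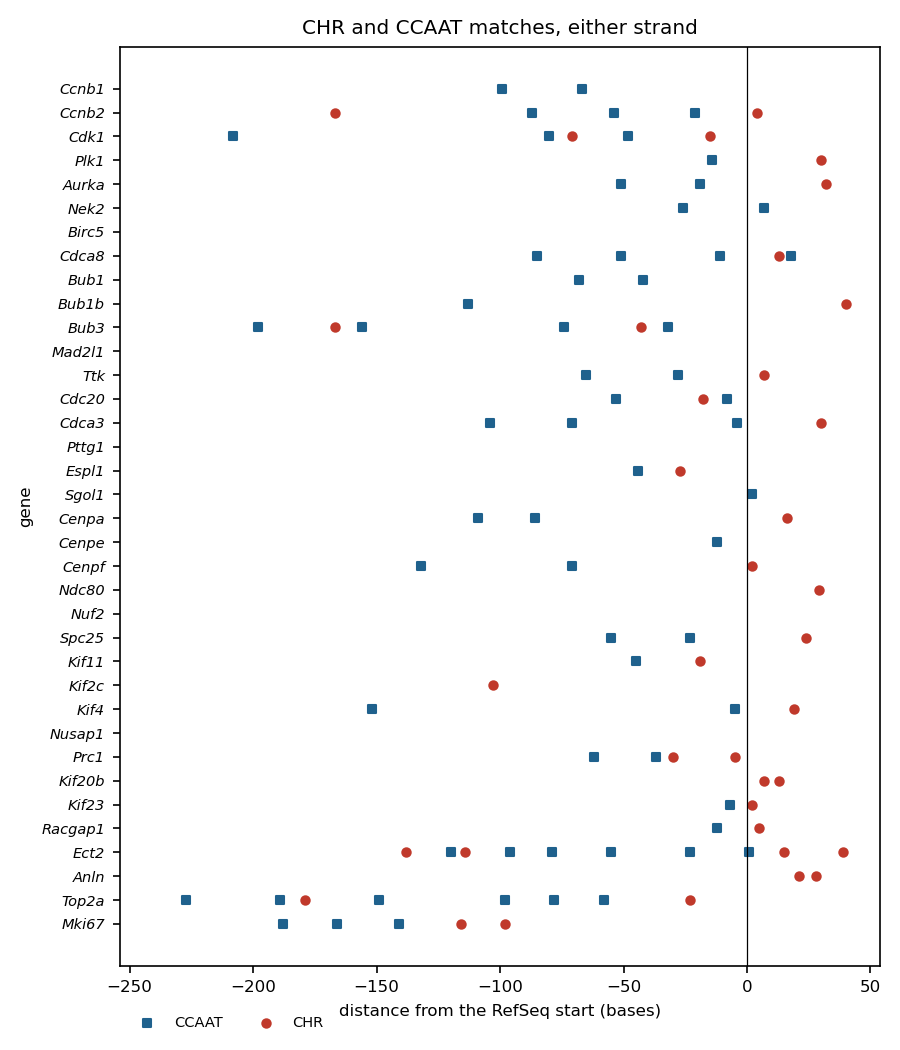
Position of each CHR (circles) and CCAAT box (squares) on either strand relative to the RefSeq start (x axis, bases), for the 36 genes with a promoter (y axis). A site of a gene with 2 promoters is drawn once from each start. The CHR matches had a median position of 2 bases after the start over 37 matches, and the CCAAT matches a median position of -60.0 bases, upstream of it, over 62 matches.

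At the median the CCAAT boxes lay upstream of the CHR, as in the printed promoters of Ccnb2 and Cenpa. Not every printed promoter had this order. In Cdk1 and Cdc20 a CHR lay upstream of a CCAAT box, and in Cdca8 the last CCAAT box began within the CHR. The ratios of genes with and without the elements were set side by side. Among the 22 genes with a CHR and at least 1 CCAAT box, 12 were at least 2-fold lower in GRK6-/- than in WT CLP, with a median log2 ratio of -1.19, and among the 14 genes without that combination 7 were, with a median of -0.94. With a CHR and at least 2 CCAAT boxes the count was 9 of 15 and the median -1.39, against 10 of 21 and -0.81 without. For the CHR alone it was 13 of 26 and -0.87 with it, and 6 of 10 and -1.29 without it. Over all genes 23.4% were that much lower, and the differences between these groups of genes were not tested.

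**Figure D2:**
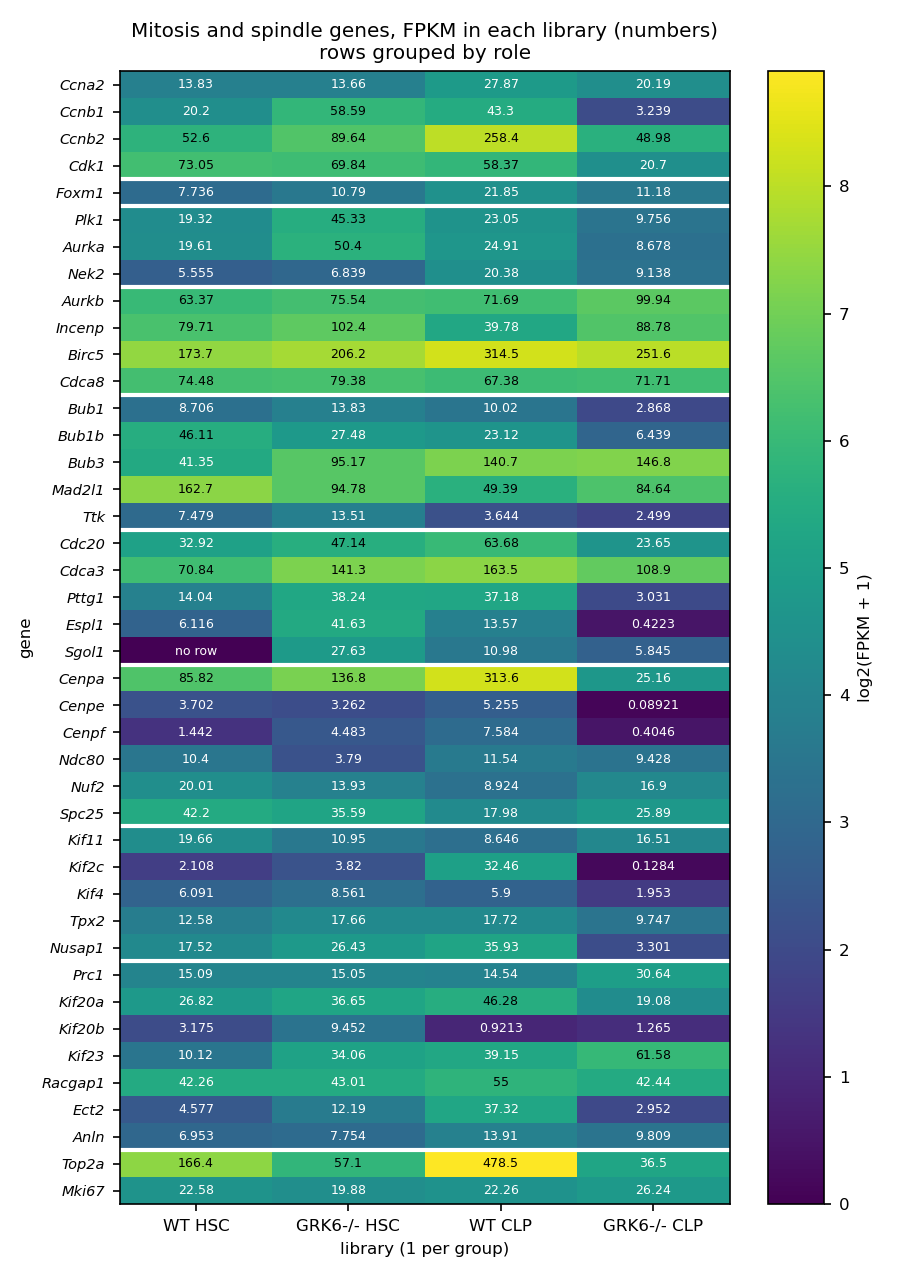
FPKM of each of the 42 genes (y axis, grouped by role, groups divided by white lines) in the 4 libraries (x axis, 1 library per group). The printed numbers are FPKM and the colour is log2(FPKM + 1). Kif2c, Espl1, Cenpe and Cenpf were under 1 FPKM in GRK6-/- CLP, whereas Birc5 and Cdca8 were high in all 4 libraries.

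Mitotic transcripts were present in all 4 libraries. The 42 genes summed to 1513 FPKM in WT HSC, 1850 FPKM in GRK6-/- HSC, 2661 FPKM in WT CLP and 1369 FPKM in GRK6-/- CLP, which was 0.238%, 0.266%, 0.412% and 0.229% of all FPKM of the library. The high sum in WT CLP was carried by Top2a, Birc5, Cenpa and Ccnb2, without which the sums were 1034, 1360.0, 1296 and 1007 FPKM. The median gene was at 19.5, 30.8, 26.4 and 13.8 FPKM in the same order, and was thus highest in GRK6-/- HSC and lowest in GRK6-/- CLP. WT CLP held the highest value of 19 genes, and GRK6-/- CLP the lowest value of 21. The same was not counted over all genes, so these counts describe the 42 genes only. In pooled RNA, fewer cells in G2 or M phase and less mitotic RNA per such cell cannot be told apart, and with 13 to 15 cells per library a few dividing cells can carry a large share of these transcripts.

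How far a gene varied differed widely among the 42. The ratio of the highest to the lowest library had a median of 3.55 over the 41 genes with a row in every library. It was over 4-fold for 19 genes and over 10-fold for 11, of which 10 (Ccnb1, Pttg1, Espl1, Cenpa, Cenpe, Cenpf, Kif2c, Nusap1, Ect2 and Top2a) were lowest in GRK6-/- CLP and Kif20b was lowest in WT CLP. It was under 2-fold for Aurkb, Birc5, Cdca8, Tpx2, Racgap1 and Mki67. Such spreads were not counted over all genes, so whether they are particular to the 42 genes was not tested. Levels also moved with transcript length, with a Spearman rho of -0.51 between the longest annotated transcript and the mean FPKM across the 42 genes, which share the same 4 libraries. The cDNA was primed from the poly(A) tail, and the part of transcript length in the levels was not tested.

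Cyclins and CDK1 were taken first. Ccnb1, a cyclin B that activates CDK1, was at 20.2 FPKM in WT HSC, 58.6 FPKM in GRK6-/- HSC, 43.3 FPKM in WT CLP and 3.24 FPKM in GRK6-/- CLP. Ccnb2, the other mitotic cyclin B, was at 52.6, 89.6, 258 and 49.0 FPKM in the same order. Both were highest or second highest in GRK6-/- HSC and WT CLP. Cdk1, the catalytic partner, had 73.05 FPKM in WT HSC, 69.8 FPKM in GRK6-/- HSC, 58.4 FPKM in WT CLP and 20.7 FPKM in GRK6-/- CLP, so that 3 libraries lay close together and 1 below them. Ccna2, cyclin A2, which acts in S phase and early mitosis, stayed between 13.7 and 27.9 FPKM. Together the 4 genes summed to 160 FPKM in WT HSC, 232 FPKM in GRK6-/- HSC, 388 FPKM in WT CLP and 93.1 FPKM in GRK6-/- CLP. Foxm1, the transcription factor of the G2 and M program, ranged from 7.74 FPKM in WT HSC to 21.9 FPKM in WT CLP.

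Among the mitotic kinases, Plk1, which acts in centrosome maturation and mitotic entry, was at 19.3 FPKM in WT HSC, 45.3 FPKM in GRK6-/- HSC, 23.05 FPKM in WT CLP and 9.76 FPKM in GRK6-/- CLP. Aurka, the Aurora kinase of the spindle poles, was at 19.6, 50.4, 24.9 and 8.68 FPKM. Both genes were therefore highest in GRK6-/- HSC and lowest in GRK6-/- CLP, with the WT libraries between. Nek2, a kinase of centrosome separation, was low in both HSC libraries, at 5.555 and 6.84 FPKM, and reached 20.4 FPKM in WT CLP and 9.14 FPKM in GRK6-/- CLP.

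The chromosomal passenger complex, which corrects wrong attachments and later sits at the midzone, did not share that order. Its 4 subunits summed to 391 FPKM in WT HSC, 464 FPKM in GRK6-/- HSC, 493 FPKM in WT CLP and 512 FPKM in GRK6-/- CLP. Birc5 (survivin) was the most abundant of the 42 genes in both HSC libraries and in GRK6-/- CLP, at 174, 206 and 252 FPKM, and reached 314.5 FPKM in WT CLP. Cdca8 (borealin) was the most even gene, with 67.4 to 79.4 FPKM. Aurkb, the kinase of the complex, ranged from 63.4 to 99.9 FPKM and was highest in GRK6-/- CLP. Incenp, the scaffold, was lowest in WT CLP, at 39.8 FPKM, and between 79.7 and 102 FPKM elsewhere. On the log2(FPKM + 1) scale used for the comparisons below, no subunit was at least 2-fold lower in any of the 4, with Incenp closest, at -0.985 for WT CLP over WT HSC.

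Members of the spindle assembly checkpoint differed among themselves. Bub1, a kinase of the outer kinetochore, was at 8.71 FPKM in WT HSC, 13.8 FPKM in GRK6-/- HSC, 10.0 FPKM in WT CLP and 2.87 FPKM in GRK6-/- CLP. Bub1b, which encodes BUBR1, a part of the inhibitor of the APC/C, was at 46.1, 27.5, 23.1 and 6.44 FPKM. Ttk, which encodes the kinase MPS1 that starts checkpoint signalling, was at 7.48, 13.5, 3.64 and 2.50 FPKM. All 3 genes had their lowest value in GRK6-/- CLP. Bub3, the adaptor that brings BUB1 and BUBR1 to kinetochores, was highest in GRK6-/- CLP, at 41.4 FPKM in WT HSC, 95.2 FPKM in GRK6-/- HSC, 141 FPKM in WT CLP and 147 FPKM in GRK6-/- CLP. Mad2l1, which encodes the CDC20 inhibitor MAD2, was highest in WT HSC, at 163 FPKM, and lowest in WT CLP, at 49.4 FPKM.

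Genes of the APC/C, its regulators and the onset of anaphase held some of the widest ranges. Espl1, which encodes separase, was at 6.12 FPKM in WT HSC, 41.6 FPKM in GRK6-/- HSC, 13.6 FPKM in WT CLP and 0.422 FPKM in GRK6-/- CLP, the last from an estimated 8 fragments. Pttg1, which encodes securin, the inhibitor of separase, was at 14.0, 38.2, 37.2 and 3.03 FPKM. Separase and securin were thus both highest in GRK6-/- HSC and lowest in GRK6-/- CLP, and the promoter of Espl1 shown above holds the CHR and a CCAAT box while that of Pttg1 holds neither. Sgol1, the protector of centromeric cohesin, had no row in WT HSC and 27.6 FPKM in GRK6-/- HSC, 10.98 FPKM in WT CLP and 5.845 FPKM in GRK6-/- CLP, and no ratio is given against the library without a row. Cdc20, the APC/C activator, ranged from 23.65 FPKM in GRK6-/- CLP to 63.7 FPKM in WT CLP. Cdca3, a trigger of mitotic entry, ranged from 70.8 FPKM in WT HSC to 163.5 FPKM in WT CLP.

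At the centromere and kinetochore, the genes of the centromeric histone and of the large proteins CENP-E and CENP-F differed from those of the NDC80 complex. Cenpa, the histone H3 variant that marks centromeres, was at 85.8 FPKM in WT HSC, 137 FPKM in GRK6-/- HSC, 314 FPKM in WT CLP and 25.2 FPKM in GRK6-/- CLP. Cenpf, a large kinetochore protein, was at 1.44, 4.48, 7.58 and 0.405 FPKM. Cenpe, a kinetochore motor, was at 3.70, 3.26, 5.255 and 0.0892 FPKM, the last from an estimated 2 fragments. All 3 were highest in WT CLP and lowest in GRK6-/- CLP. The NDC80 complex, which binds microtubules, did not follow them. Its subunits Nuf2 and Spc25 were lowest in WT CLP, at 8.92 and 18.0 FPKM, and highest in WT HSC, at 20.0 and 42.2 FPKM. Ndc80 itself was lowest in GRK6-/- HSC, at 3.79 FPKM, and between 9.43 and 11.5 FPKM in the other libraries.

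Among spindle motors and microtubule proteins, Kif2c, which encodes the microtubule depolymerase MCAK, was at 2.11 FPKM in WT HSC, 3.82 FPKM in GRK6-/- HSC, 32.5 FPKM in WT CLP and 0.128 FPKM in GRK6-/- CLP. The last value came from an estimated 1 fragment, so its ratio to WT CLP depends on the pseudocount. Nusap1, a protein that bundles spindle microtubules, was at 17.5, 26.4, 35.9 and 3.30 FPKM, and Kif4, a chromosome-bound motor, at 6.09, 8.56, 5.90 and 1.95 FPKM. These 3 genes were lowest in GRK6-/- CLP. Kif11, the motor that separates the spindle poles, was instead lowest in WT CLP, at 8.65 FPKM, and highest in WT HSC, at 19.7 FPKM. Tpx2, which activates Aurora A on the spindle, stayed between 9.75 and 17.7 FPKM.

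Cytokinesis genes differed among themselves. Ect2, which activates RhoA at the division plane, was at 4.58 FPKM in WT HSC, 12.2 FPKM in GRK6-/- HSC, 37.3 FPKM in WT CLP and 2.95 FPKM in GRK6-/- CLP. Kif23, a motor of the centralspindlin complex, was at 10.1, 34.1, 39.15 and 61.6 FPKM, and was thus highest where Ect2 was lowest. Racgap1, its partner in centralspindlin, was between 42.3 and 55.0 FPKM. Kif20b was at 3.175, 9.45, 0.921 and 1.265 FPKM and was low in both CLP libraries. Prc1, which bundles midzone microtubules, was near 15.1 FPKM in both HSC libraries, at 14.5 FPKM in WT CLP and at 30.6 FPKM in GRK6-/- CLP. Kif20a, a motor of the midzone, ranged from 19.1 FPKM in GRK6-/- CLP to 46.3 FPKM in WT CLP, and Anln, the actin-binding anillin, from 6.95 to 13.9 FPKM.

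Of the remaining genes, Top2a, the topoisomerase that untangles sister chromatids, was at 166 FPKM in WT HSC, 57.1 FPKM in GRK6-/- HSC, 478.5 FPKM in WT CLP and 36.5 FPKM in GRK6-/- CLP. It was the single most abundant of the 42 genes in WT CLP and lay below the WT library of the same population in both GRK6-/- libraries. Mki67, the proliferation marker Ki-67, stayed between 19.9 and 26.2 FPKM in all 4 libraries.

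The question whether loss of GRK6 goes with a change in mitotic genes was addressed first in HSC. On the scale of log2((FPKM + 1)/(FPKM + 1)), GRK6-/- over WT, 11 of the 42 genes (26.2%) were at least 2-fold higher and 2 (4.8%) at least 2-fold lower in GRK6-/- HSC. Over all 11624 genes compared, 19.3% were at least 2-fold higher and 18.0% lower. The share of higher genes was thus not far from that of all genes, while few members were lower. The median log2 ratio was 0.435 for the members and 0.0483 for all genes. The higher genes were Ccnb1, Plk1, Aurka, Bub3, Pttg1, Espl1, Sgol1, Cenpf, Kif20b, Kif23 and Ect2. Among those with a row in both libraries, Espl1 had the largest log2 ratio, 2.58, followed by Kif23 with 1.66 and Ccnb1 with 1.49. The lower genes were Top2a, with a log2 ratio of -1.53, and Ndc80, with -1.25.

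In CLP more members were lower than higher in the GRK6-/- library. Of the 42 genes, 20 (47.6%) were at least 2-fold lower and 2 (4.8%) at least 2-fold higher, while over all 11191 genes compared 23.4% were lower and 26.6% higher. The median log2 ratio was -0.86 for the members and 0.0515 for all genes. The lower genes included cyclin B and its kinase (Ccnb1 with a log2 ratio of -3.385, Ccnb2 with -2.38 and Cdk1 with -1.45), the kinases Plk1, Aurka, Nek2, Bub1 and Bub1b, the anaphase genes Cdc20, Pttg1 and Espl1, the centromere genes Cenpa, Cenpe and Cenpf, and Kif2c, Kif4, Nusap1, Kif20a, Ect2 and Top2a. Among these, the log2 ratio was -3.68 for Top2a, -3.59 for Cenpa, -3.36 for Espl1, -3.28 for Ect2, -3.24 for Pttg1 and -3.10 for Nusap1. Only Incenp, with a log2 ratio of 1.14, and Prc1, with 1.03, were at least 2-fold higher.

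**Figure D3:**
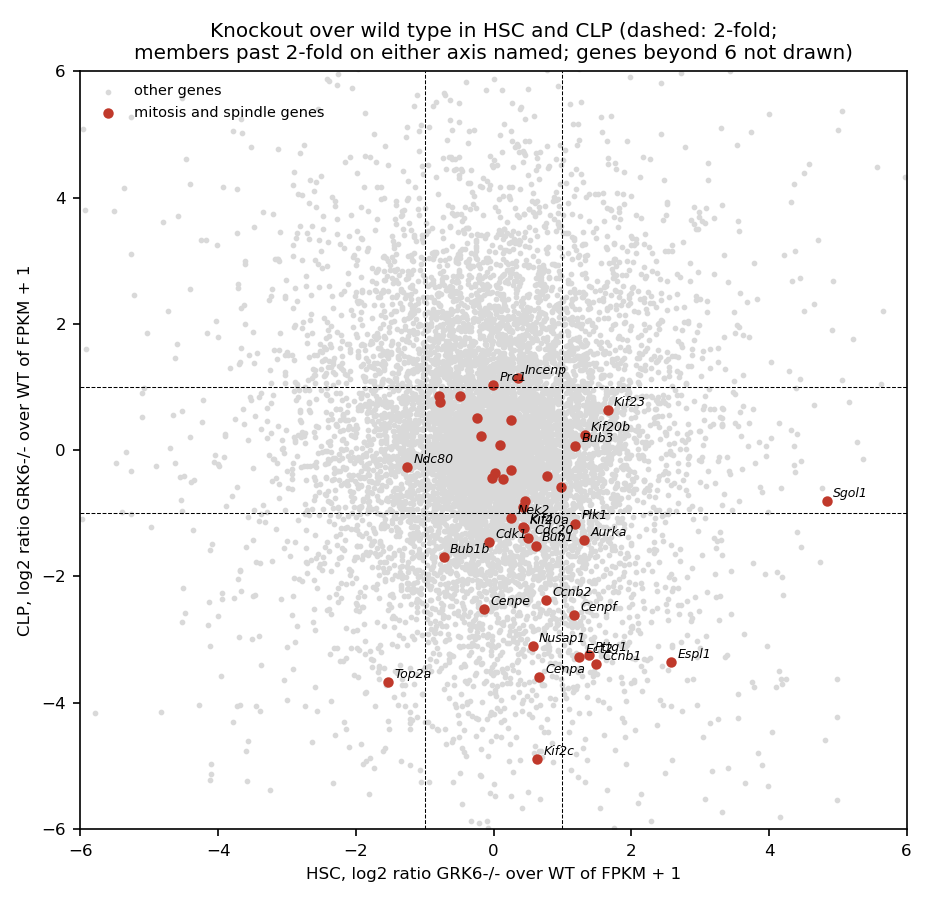
Log2 ratio of FPKM + 1, GRK6-/- over WT, in HSC (x axis) and in CLP (y axis), with the 42 genes in red and all other genes with a ratio in both populations in grey. Dashed lines mark 2-fold. In the lower right corner lie Ccnb1, Plk1, Aurka, Pttg1, Espl1, Cenpf and Ect2, and in the lower left corner Top2a, while the upper corners hold no gene of the 42.

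The 2 ratios use different libraries and could be set side by side. At least 2-fold higher in GRK6-/- HSC and at least 2-fold lower in GRK6-/- CLP were 7 of the 42 genes, namely Ccnb1, Plk1, Aurka, Pttg1, Espl1, Cenpf and Ect2, and 527 of all 10398 genes compared (5.07%). The reverse pattern was found in 0 of the 42 genes and in 5.69% of all genes. No member was at least 2-fold higher in both populations, compared with 5.66% of all genes, and Top2a alone was lower in both, as were 4.43% of all genes. For Ccnb1 the log2 ratio was 1.49 in HSC and -3.385 in CLP, and for Plk1, the smallest contrast of the 7, it was 1.19 in HSC and -1.16 in CLP. No test of how far HSC and CLP differed in these ratios was possible without replicates.

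The populations were next compared within each genotype. In WT, 15 of the 42 genes (35.7%) were at least 2-fold higher in CLP than in HSC and 5 (11.9%) at least 2-fold lower, compared with 21.8% and 24.7% of all 11202 genes. The median log2 ratio of CLP over HSC was 0.61 for the members and -0.0794 for all genes. Higher in WT CLP were the cyclins Ccnb1 and Ccnb2, Foxm1, Nek2, Bub3, the anaphase genes Pttg1, Espl1 and Sgol1, as well as Cdca3, Cenpa, Cenpf, Kif2c, Kif23, Ect2 and Top2a. The log2 ratio reached 3.43 for Kif2c, 2.78 for Ect2 and 2.275 for Ccnb2. Lower in WT CLP were Mad2l1, with a log2 ratio of -1.70, Spc25, Kif20b, Kif11 and Nuf2.

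In GRK6-/- mice more members were lower than higher in CLP. Of the 42 genes, 18 (42.9%) were at least 2-fold lower in CLP than in HSC and 1 (2.4%), Ndc80, at least 2-fold higher, with a log2 ratio of 1.12, compared with 23.4% and 22.3% of all 11708 genes. The median log2 ratio was -0.83 for the members and -0.0775 for all genes. The lowest ratios were -4.905 for Espl1, -3.81 for Ccnb1 and -3.28 for Pttg1. This comparison and that of the genotypes in CLP share the GRK6-/- CLP library and are not independent. The comparisons without that library, of WT CLP and of GRK6-/- HSC with WT HSC, are the ones given above and share WT HSC, so they are not independent of each other either.

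**Figure D4:**
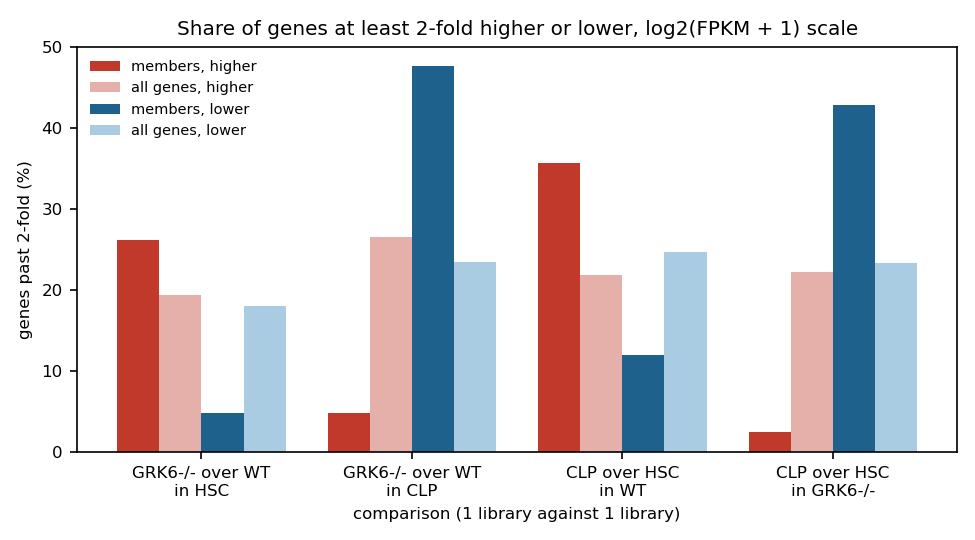
Share of the 42 genes (dark bars) and of all genes compared (light bars) that were at least 2-fold higher (red) or lower (blue) on the log2(FPKM + 1) scale (y axis, %), in each comparison of 1 library with 1 library (x axis). The share of members lower was 47.6% for GRK6-/- over WT in CLP and 42.9% for CLP over HSC in GRK6-/-, above the 23.4% of all genes in both.

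Across all 4 libraries, a limma model with population and genotype as terms had 1 residual degree of freedom. Between CLP and HSC it called 30 of 10324 genes at an adjusted p-value under 0.05, or 0.291%, and 0 of the 42. At an unadjusted p under 0.05 there were 0 members, against 6.59% of all genes, and Bub3 had the lowest limma p of the 42, 0.0631 (adjusted p = 0.823), with a log2 difference of 1.18 ± 0.607 (SE). Between GRK6-/- and WT it called 7 genes, or 0.0678%, and again 0 of the 42. Here 1 member had an unadjusted p under 0.05, as had 5.14% of all genes, and this was Top2a, which was lower in the GRK6-/- library in 2 of 2 populations, with a log2 difference of -2.60 ± 0.612 (SE) and a limma adjusted p of 0.131. An additive model takes the genotype difference to be the same in both populations, and whether that held was not tested. Its 1 residual degree of freedom is the departure from that assumption. The median member ratios were 0.435 in HSC and -0.857 in CLP, and opposite differences cancel in the model and enter its error. The lack of calls therefore cannot show whether members differed within a population or within a genotype.

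Other lists of cell cycle genes were read in the same way. The list of 77 other mitosis genes (further centromere proteins, kinesins, APC/C subunits and mitotic regulators) summed to 2637 FPKM in WT HSC, 3201 FPKM in GRK6-/- HSC, 3687 FPKM in WT CLP and 2199 FPKM in GRK6-/- CLP, the same order of libraries as for the 42 genes. That order rested on Ube2c, Cks2 and Cks1b, without which the sums were 1874, 2120.0, 1799 and 1763 FPKM. In GRK6-/- against WT CLP, 23 of 74 were at least 2-fold lower and 19 at least 2-fold higher, with a median log2 ratio of -0.216, beside 23.4% and 26.6% of all genes. In GRK6-/- against WT HSC, 7 of 75 were lower and 13 higher, with a median of 0.165, beside 18.0% and 19.3%. For CLP over HSC, 19 of 75 were lower and 21 higher in WT (24.7% and 21.8% of all genes), and 25 of 74 lower and 10 higher in GRK6-/- (23.4% and 22.3%). The kinesin Kifc1 was at 2.76 FPKM in WT HSC, 58.8 FPKM in GRK6-/- HSC and 38.8 FPKM in WT CLP, and had no row in GRK6-/- CLP. Cenpk, of the inner kinetochore, went the other way, with 2.09 FPKM in WT CLP and 73.3 FPKM in GRK6-/- CLP. Of the 19 condensin and cohesin genes, 6 were higher and 3 lower in GRK6-/- than in WT CLP, with a median of -0.126. The shares of all genes were 26.6% and 23.4%. In HSC 1 of the 19 was higher and 1 lower, beside 19.3% and 18.0% of all genes.

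**Figure D5:**
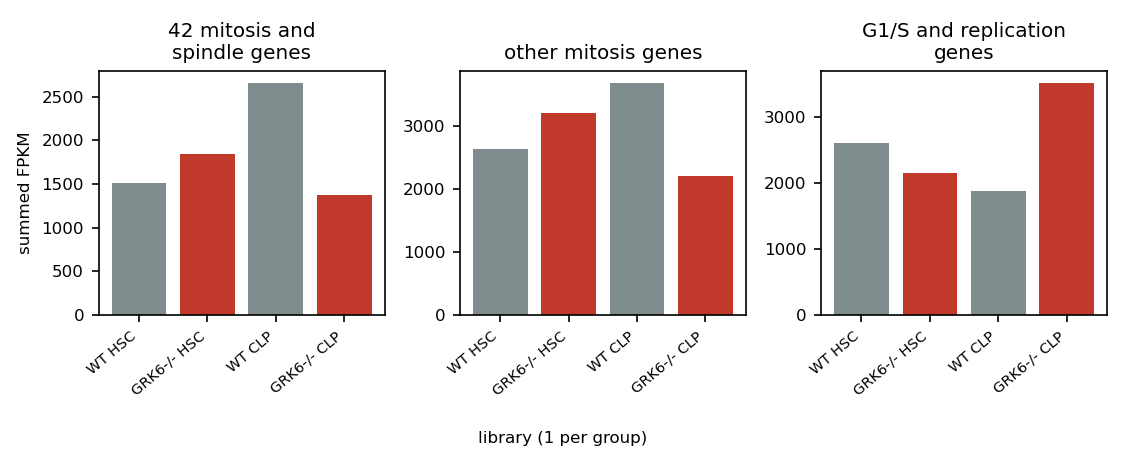
Summed FPKM (y axis, from 0, scaled separately in each panel) of the 42 mitosis and spindle genes, of other mitosis genes and of G1/S and replication genes in the 4 libraries (x axis, WT grey, GRK6-/- red). The mitotic sums were highest in WT CLP (2661 and 3687 FPKM) and lowest in GRK6-/- CLP (1369 and 2199 FPKM). The high sums and much of this gap rested on a few abundant genes. Without those genes the mitotic sums were 1296 and 1799 FPKM in WT CLP and 1007 and 1763 FPKM in GRK6-/- CLP. The G1/S and replication sum was lowest in WT CLP (1877 FPKM) and highest in GRK6-/- CLP (3521 FPKM).

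Genes of the G1/S transition and of DNA replication, which are transcribed earlier in the cell cycle, were ordered differently. The 37 genes summed to 2615 FPKM in WT HSC, 2159 FPKM in GRK6-/- HSC, 1877 FPKM in WT CLP and 3521 FPKM in GRK6-/- CLP. In CLP, 17 were at least 2-fold higher and 3 at least 2-fold lower in the GRK6-/- library, with a median log2 ratio of 0.98, beside 26.6% and 23.4% of all genes. E2f1, the E2F transcription factor of S phase entry, was at 0.757 FPKM in WT CLP and 55.8 FPKM in GRK6-/- CLP. Ccne1, cyclin E1, was at 0.608 and 24.9 FPKM, and Lig1, a DNA ligase of replication, at 12.9 and 118 FPKM. The lower genes were Dbf4 (14.7 and 0.301 FPKM), Cdc7 (32.8 and 13.0 FPKM) and Mcm3 (220 and 101 FPKM), of which DBF4 and CDC7 form the kinase that fires replication origins. In HSC, 1 of the 37 was higher (Lig1) and 6 were lower in the GRK6-/- library, with a median of -0.03, beside 19.3% and 18.0%.

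The list of 20 genes held repressors of cell cycle genes, CDK inhibitors and their partners, and also Mybl2, which encodes the activator B-MYB. Of the 19 compared, 10 were at least 2-fold higher and 1 lower in GRK6-/- than in WT CLP, with a median of 1.14. Of all genes, 26.6% were higher and 23.4% lower. The 10 included Mybl2, at 5.14 FPKM in WT CLP and 28.2 FPKM in GRK6-/- CLP. In HSC 3 of 18 were higher and 3 lower, beside 19.3% and 18.0%. Rbl2, which encodes the DREAM subunit p130, was at 11.6 FPKM in WT HSC and 4.09 FPKM in GRK6-/- HSC, had no row in WT CLP and was at 80.5 FPKM in GRK6-/- CLP. Lin9, a subunit of the core that both DREAM and the B-MYB complex use, was at 6.83, 9.71, 0.386 and 51.5 FPKM. Cdkn2c, a CDK inhibitor, was the 1 lower gene, at 57.7 FPKM in WT CLP and 25.5 FPKM in GRK6-/- CLP.

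The sums of erythroid and of B lineage markers were highest in the library with the lowest mitotic sum, although both gates exclude cells positive for lineage markers. The 12 erythroid markers summed to 341 FPKM in WT HSC, 1744 FPKM in GRK6-/- HSC, 154 FPKM in WT CLP and 18180 FPKM in GRK6-/- CLP. Of the 9 with a row in either CLP library, 9 were at least 2-fold higher in GRK6-/- CLP, beside 26.6% of all genes. The alpha globin gene Hba-a2 alone was at 17200 FPKM in GRK6-/- CLP, against 17.4 FPKM in WT CLP, and carried the high sum. Hba-a1, Hbb-b1 and Hbb-b2 had no row of their own in any library. A beta globin row outside the list, named Beta-s, was at 6.245 FPKM in WT HSC, 31.65 FPKM in GRK6-/- HSC, 11.1 FPKM in WT CLP and 18660 FPKM in GRK6-/- CLP. In GRK6-/- against WT HSC, 8 of 9 erythroid markers were at least 2-fold higher and 0 lower, beside 19.3% and 18.0% of all genes. Between the GRK6-/- libraries, 4 of 9 were higher and 3 lower in CLP than in HSC, beside 22.3% and 23.4%. The lower ones were Car1 (612 and 67.3 FPKM in GRK6-/- HSC and CLP), Ermap (42.6 and 15.3 FPKM) and Epor (18.0 and 7.43 FPKM). The 9 B lineage markers summed to 41.9, 35.5, 452 and 1656 FPKM in the order of libraries above, with Pax5 without a row in any library. In GRK6-/- against WT CLP, 6 of 8 were higher and 1 lower, beside 26.6% and 23.4% of all genes. The lower one was Vpreb2, at 70.6 FPKM in WT CLP and 4.75 FPKM in GRK6-/- CLP, while Blnk was even, at 167 and 171 FPKM. The 10 lymphoid progenitor markers summed to 201, 163.5, 2831 and 2049 FPKM, the 12 stem and progenitor markers to 459, 609.8, 572 and 811 FPKM, and the 12 myeloid markers to 16730, 11550, 9033 and 7767 FPKM. The part of these cell types in the mitotic differences was not tested, and with 1 library per group cell composition and genotype cannot be told apart.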

How the data were processed

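The labels give 4 pooled RNA-seq libraries, with HSC and CLP of both genotypes represented by 1 library each. The authors aligned reads to mm9 with TopHat 1.4.0 (submitters' processing notes) and other tools of the Tuxedo suite, and the deposited processed tables used here give an FPKM value for each gene; counts were not used here. From these values, rows of 1 symbol were summed, genes in joint rows were left out (333 of 12750), a missing row was set to 0, and log2 ratios of FPKM + 1 were computed, which understates changes of low genes. The 2-fold ratio (log2 of 1) is the study's, without its p-value threshold and with the pseudocount added. limma 3.58.1 in R 4.3.3 used moderated statistics with a trend on log2(FPKM + 1) for genes with a mean of at least 1 FPKM, and p-values were adjusted over all of them by the Benjamini-Hochberg method. Depth was estimated from the steps of values up to 0.3 FPKM, and fragments per gene from that depth and include PCR copies. Transcript lengths came from GENCODE vM1 on NCBIM37 (mm9), and promoters from RefSeq GRCm38.p6. Scripts were tested on simulated data, in Python 3.11.15 with pandas 2.3.3, scipy 1.17.1 and matplotlib 3.10.9. All 42 genes were described. Of other lists, at most the 3 genes furthest up and down per comparison were named. Beyond these, the markers Il7r, Hba-a1, Hbb-b1, Hbb-b2, Pax5, Ly6a and Beta-s were named. Also named were Mybl2 and the abundant Ube2c, Cks2 and Cks1b. These additions were chosen after their values were seen. The genes and lists were chosen with earlier results of these data known. Sums without the most abundant genes were added after seeing the data.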

Additional observations from a re-analysis of the deposited data

Results flagged for a closer look

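In 7 of the 42 genes the GRK6-/- and WT libraries differed by at least 2-fold in opposite directions, higher in GRK6-/- HSC and lower in GRK6-/- CLP. The difference between the log2 ratios of GRK6-/- over WT, CLP minus HSC, was -4.88 for Ccnb1, -2.35 for Plk1, -2.74 for Aurka, -4.63 for Pttg1, -5.94 for Espl1, -3.78 for Cenpf and -4.52 for Ect2. Each rests on 1 library per group and was not tested, and 5.07% of all genes showed the same pattern. The GRK6-/- CLP values of Espl1 and Cenpf came from an estimated 8 and 12 fragments, and those of Pttg1, Ccnb1 and Ect2 from 14, 22 and 33.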

How the results depend on the processing

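No paired analysis was possible because each group was 1 library and no replicate numbers were given. For the same reason no library could be left out within a group. For single genes under the alternatives, it was recorded whether a ratio stayed on the same side of the threshold. Of 1008 such calls, 952 were the same as in the main setting, 56 changed and 0 reversed in direction. Part of the same calls was fixed in advance. Counting joint rows for each gene could not change a member, since 0 members were in a joint row. A filter at 1 FPKM could drop a gene but not change its ratio. A call can stay the same while the ratio moves, and the 4-fold threshold changed calls without changing any ratio. With a 4-fold threshold, the members higher and lower in GRK6-/- numbered 2 and 0 in HSC (6.07% and 6.37% of all genes) and 0 and 11 in CLP (13.5% and 11.3%), and those higher and lower in CLP than in HSC numbered 4 and 0 in WT (9.22% and 11.2%) and 0 and 11 in GRK6-/- (9.72% and 9.41%). After rescaling to a median log2 ratio of 0, 1 member was higher in GRK6-/- CLP than in WT CLP, and 2 members were higher in CLP than in HSC of GRK6-/- mice, as with a pseudocount of 0.1 FPKM (2). The other counts of members past 2-fold stayed within 1.5 times under every pseudocount, filter, rescaling and row rule tried. For the genotype, limma called 1 member, Top2a, with a pseudocount of 0.1 FPKM (limma adjusted p = 0.0454) and 1, again Top2a, after rescaling to equal medians (adjusted p = 0.0371), but 0 without a filter (adjusted p = 0.934) and 0 without a trend (adjusted p = 0.947). Without a trend it called 0 of all genes in either comparison, and 418 genes for genotype and 524 for population had an unadjusted p under 0.05. The low values limit what is shown, since a few fragments decide the ratios of Kif2c, Cenpe, Espl1 and Cenpf.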
